A study of Mus musculus with 16 samples.

Results

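The enzymes described here make and open the epoxides of long-chain fatty acids. The group holds 6 genes chosen by name among the 41585 rows of the deposited count table: the epoxygenases Cyp2j5, Cyp2j6, Cyp2j9 and Cyp2c44, and the epoxide hydrolases Ephx1 and Ephx2. All 6 had a row of their own and all 6 passed the filter on low counts. RNA was sequenced from livers of C57BL/6 mice fed a diet of 60% fat for 16 weeks, in 4 groups of 4 libraries: hCYP2B6-Tg females, Cyp2b-null females, hCYP2B6-Tg males and Cyp2b-null males. By their names, hCYP2B6-Tg mice hold a human CYP2B6 transgene and Cyp2b-null mice lack mouse Cyp2b genes. What drives the transgene, which genes are deleted, the state of mouse Cyp2b genes in hCYP2B6-Tg mice and the age of the animals were not found in the labels. The series was made to ask what human CYP2B6 does in the liver in diet-induced obesity.

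Epoxygenases are cytochrome P450 enzymes of the endoplasmic reticulum that add an oxygen atom across a double bond of arachidonic, linoleic and other unsaturated fatty acids. The products, the epoxyeicosatrienoic acids and their relatives, relax blood vessels and dampen inflammation. Soluble epoxide hydrolase, the product of Ephx2, opens them to less active diols, and microsomal epoxide hydrolase, the product of Ephx1, opens epoxides of drugs and pollutants as well as some fatty acid epoxides. CYP2B enzymes also oxidise unsaturated fatty acids, which places these genes next to the one changed in these mice. Cyp2j5 is best known from mouse liver and kidney, Cyp2j6 from the intestine and Cyp2j9 from the brain. Cyp2c44, called Cyp2c23 in the RefSeq table, is an arachidonic acid epoxygenase that lies apart from the main Cyp2c cluster.

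The libraries held 5584587 to 9672708 counts. Levels are given as CPM, counts scaled to the library's TMM-adjusted total. Where a gene has no count, its level may still reach 0.310 to 0.537 CPM, depending on the library (3 counts of the total, counting error only). The summed counts of Cyp2b10, Cyp2b19 and Cyp2b23, mouse genes of the Cyp2b family, were 9 to 26 in hCYP2B6-Tg females, 0 to 1 in Cyp2b-null females, 6 to 50 in hCYP2B6-Tg males and 0 to 1 in Cyp2b-null males. Other Cyp2b genes are not in this sum, which does not describe the whole family. The build named for these data is the mouse build GRCm38.p6. Whether these counts come from mouse genes or from reads of the human transgene was not tested. Hepatocyte markers, among them the albumin gene Alb, summed to 119700 to 156600 CPM over all 16 libraries. Of the 7 kidney tubule markers 3 were at 0 throughout and the sum of all 7 was at most 1.06 CPM, and of the 7 pancreatic acinar markers 4 were at 0. Male library 4 of Cyp2b-null stood apart in markers of bile duct and pancreas. Its 6 cholangiocyte markers summed to 98.9 CPM, against 20.6 to 56.9 CPM in the other 15 libraries, and its pancreatic acinar markers to 54.5 CPM, against 9.32 to 24.6 CPM. The bile duct keratin gene Krt19 had 270 counts there, against 0 to 12 in the others, and the pancreatic protease gene Ctrb1 had 159, against 0 to 1. The Cyp2b-null sex calls of Ephx2, Ephx1 and Cyp2c44, the male genotype counts and the changed list counts are given without this library as well. Levels, ratios, overlaps of libraries, correlations and estimates of genes outside the 6 are given only with it. In bulk liver, fewer cells of a type and less RNA per cell cannot be told apart.

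The 3 Cyp2j genes lie next to each other on the reverse strand of mouse chromosome 4 in the build GRCm38.p6. Cyp2j6 spans 96516138 to 96564305, Cyp2j9 spans 96568424 to 96592523 and Cyp2j5 spans 96627432 to 96664171. Each first transcript has 9 exons. Their coding sequences, of 1503 bases in Cyp2j5 and Cyp2j6 and 1506 bases in Cyp2j9, were 82.6% identical between Cyp2j6 and Cyp2j9, 78.8% between Cyp2j5 and Cyp2j6, and 78.4% between Cyp2j5 and Cyp2j9. The stretch around the loop that holds the heme iron, the most conserved part of a P450, is shown because the 3 genes are alike there. Capitals mark the 11 of 78 positions at which the 3 sequences differ. The sequences are from GENCODE M21 transcripts, coding bases 1294 to 1371 in Cyp2j5 and Cyp2j6 and 1297 to 1374 in Cyp2j9.
Cyp2j5: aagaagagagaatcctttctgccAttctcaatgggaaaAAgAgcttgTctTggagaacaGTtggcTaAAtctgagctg
Cyp2j6: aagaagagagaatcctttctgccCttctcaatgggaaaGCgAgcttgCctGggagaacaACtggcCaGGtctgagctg
Cyp2j9: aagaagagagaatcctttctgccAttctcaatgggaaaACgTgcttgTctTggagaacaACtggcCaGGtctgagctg
Over whole transcripts few windows of 50 bases were shared, and none among these 3 genes. Of the windows in its first transcript, Cyp2j5 shared 0.174% with a transcript of any other gene (Cyp2j8), Cyp2j6 shared 0.422% (Cyp2j7 and Cyp2j13), and Cyp2j9 shared 0. Cyp2c44 and Ephx2 also shared 0, and Ephx1 shared 1.89%, all with the predicted gene Gm36961, which overlaps it by 72 exon bases on the same strand.

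Cyp2c44 lies on chromosome 19 at 44005022 to 44029256 with 9 exons, Ephx1 on chromosome 1 at 180989556 to 181017569 with 9 exons, and Ephx2 on chromosome 14 at 66084372 to 66124522 with 19 exons, all on the reverse strand. The RefSeq promoter table held 4 of the 6 genes. The 250 bases before the start of Ephx1, at chr1:181017570-181017819 on the reverse strand, are shown because Ephx1 is the one gene of the 4 that passed the test between the sexes. Capitals mark matches to the motifs searched.
Ephx1: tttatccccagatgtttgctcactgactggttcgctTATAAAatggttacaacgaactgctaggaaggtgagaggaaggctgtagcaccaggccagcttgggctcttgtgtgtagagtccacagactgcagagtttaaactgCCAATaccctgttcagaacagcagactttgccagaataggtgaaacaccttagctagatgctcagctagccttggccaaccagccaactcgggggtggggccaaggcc
The capitals are the letters of a TATA box (TATAAA, present in 12.4% of 32851 promoters) and a CCAAT box (33.8%), each searched on both strands. Their first bases lie at -214 and -108 relative to the start. None of the following was found in this window: AGGTCA, the element of many nuclear receptors (14% of promoters), its direct repeat with 1 base between (0.0335%), the antioxidant response core TGACNNNGC (10.2%), TTCNNNGAA, the STAT5 type (7.02%), and CAAAGTCCA, the HNF4 type (0.384%).

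Per kilobase of exon, Cyp2j5 was the most abundant of the 6 transcripts and Cyp2j9 the least. Cyp2j5 averaged 357 ± 17.4 CPM per kb in hCYP2B6-Tg females, 382 ± 6.54 in Cyp2b-null females, 396 ± 24.2 in hCYP2B6-Tg males and 391 ± 23.2 in Cyp2b-null males (SD, n = 4 each here and below). Ephx2 came next with group means of 240 to 356 CPM per kb, and its highest male hCYP2B6-Tg library (372 CPM per kb) reached above the lowest Cyp2j5 library of that group (369). Ephx1 (112 to 185) and Cyp2c44 (92.1 to 143) followed, and their libraries overlapped in every group but hCYP2B6-Tg males, where Ephx1 ran from 151 to 234 and Cyp2c44 from 108 to 139 CPM per kb. Cyp2j6 averaged 20.3 to 24.02 and Cyp2j9 0.813 to 1.97 CPM per kb. Of the 4 epoxygenases summed per kilobase, Cyp2j5 thus made up 70.6% ± 3.72 in hCYP2B6-Tg females, 77.2% ± 3.32 in Cyp2b-null females, 72.6% ± 2.46 in hCYP2B6-Tg males and 70.0% ± 1.67 in Cyp2b-null males.

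**Figure D1:**
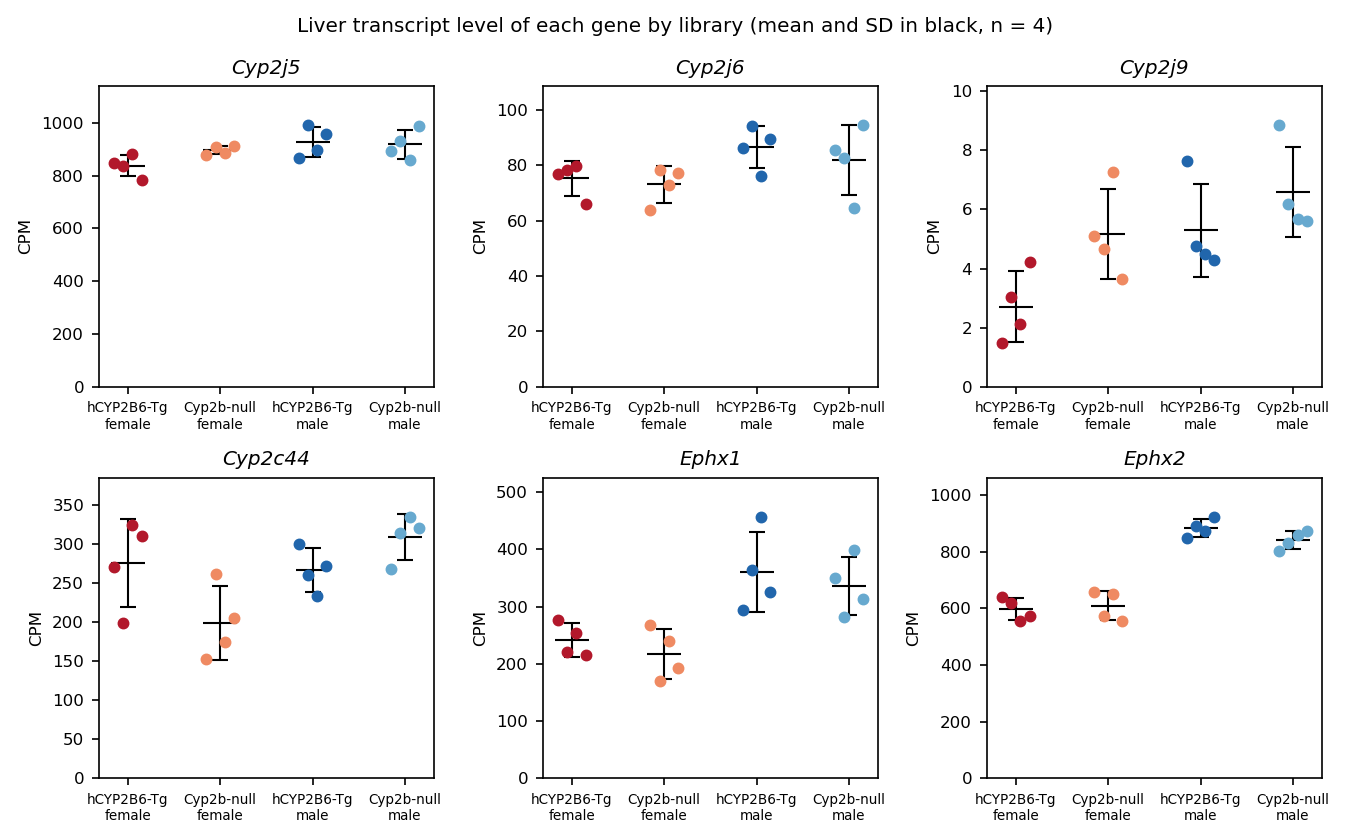
Transcript level (CPM, linear axis from 0) of the 6 genes in each of the 16 libraries, by group, with the group mean and SD in black (n = 4). All female libraries of Ephx1 and Ephx2 lie below all male libraries, and those of Cyp2j5 and Cyp2j6 overlap between the sexes and between the genotypes.

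Between genotypes, none of the 6 genes passed the test in either sex. In females 0 of 6 passed (edgeR quasi-likelihood, adjusted p 0.548 to 0.965), against 0% of the 13470 genes tested, and in males 0 of 6 passed (adjusted p 0.847 to 0.986), against 0.111%. DESeq2 and limma voom also called 0 of 6 in each sex. At an unadjusted p under 0.05 there were 2 of 6 in females, against 7.59% of all genes, and 0 of 6 in males, against 7.17%. The median log2 fold change of the 6 was 0.0056 in females, where that of all genes was 0.0016, and 0.043 in males, where that of all genes was -0.0044. Without Cyp2b-null male library 4, 0 of 6 members passed in males and the count over all genes was 2 in place of 15; it was 2 also without hCYP2B6-Tg male library 4 or 5. The libraries of the 2 genotypes overlapped for all 6 genes in each sex, while 3.5% of all genes in females and 4.77% in males had no overlap.

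Ephx2 and Ephx1 were both lower in females than in males, in each genotype. Female levels were 0.648 to 0.724 times the male level over both hydrolases and genotypes. Ephx2 passed the test by a wide margin, and Ephx1 passed it with less room.

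In hCYP2B6-Tg mice, Ephx2 had 642, 618, 557 and 572 CPM in female libraries 1, 2, 4 and 5, against 847, 891, 872.5 and 923 CPM in male libraries 2, 3, 4 and 5. In Cyp2b-null mice it had 657, 574, 651 and 555 CPM in female libraries 1, 3, 4 and 5, against 803, 830, 858 and 873 CPM in male libraries 1 to 4. The highest female library was thus below the lowest male library in both genotypes. Ephx2 fell by 0.57 ± 0.08 on the log2 scale in hCYP2B6-Tg females relative to males (SE; 0.676 times the male level, edgeR adjusted p = 1.36e-05) and by 0.47 ± 0.08 in Cyp2b-null females relative to males (0.724 times, adjusted p = 0.000175). By p it ranked at 124 and at 207 among the 13470 genes. Both calls held under all 27 alternatives, with adjusted p of at most 0.000186 and 0.00183. Without Cyp2b-null male library 4 the estimate in Cyp2b-null mice was -0.45 (edgeR adjusted p = 0.00127). The genotype effect did not differ detectably between the sexes for Ephx2 (difference, females minus males, -0.10, 95% interval -0.32 to 0.12, edgeR adjusted p = 0.867).

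For Ephx1 the hCYP2B6-Tg females had 277, 221, 253 and 216 CPM, against 295, 363, 457 and 326 CPM in hCYP2B6-Tg males, in the same order of libraries. The Cyp2b-null females had 267, 170, 240 and 193 CPM, against 351, 281, 398.5 and 313 CPM in Cyp2b-null males. No female library reached the lowest male one, and male library 4 of hCYP2B6-Tg was the highest of all 16. Ephx1 fell by 0.58 ± 0.15 on the log2 scale in hCYP2B6-Tg females relative to males (0.671 times, edgeR adjusted p = 0.0244) and by 0.63 ± 0.16 in Cyp2b-null females relative to males (0.648 times, adjusted p = 0.0184). The first call was lost without male library 4 of hCYP2B6-Tg (-0.44, adjusted p = 0.0653), without male library 3 (0.056) or without female library 2 or 5 of that genotype (0.0704 and 0.0801). The second was lost without Cyp2b-null female library 3 (0.0508) or 5 (0.0627) or male library 3 (0.0635), and held without male library 4 (-0.66, 0.0308). Over the 16 omissions of 1 library the estimate stayed between -0.66 and -0.44 in hCYP2B6-Tg and between -0.73 and -0.53 in Cyp2b-null mice.

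In the genotype comparison, Ephx2 averaged 597 ± 39.5 CPM in hCYP2B6-Tg females and 609 ± 51.9 CPM in Cyp2b-null females. In males it averaged 883.5 ± 32.0 CPM in hCYP2B6-Tg livers and 841 ± 31.0 CPM in Cyp2b-null livers. Its 95% intervals of the log2 fold change, -0.18 to 0.13 in females and -0.085 to 0.23 in males, were the tightest of the 6 after those of Cyp2j5. Ephx1 averaged 242 ± 29.0 CPM in hCYP2B6-Tg females and 218 ± 44.0 CPM in Cyp2b-null females, with an interval of -0.18 to 0.48. In males it averaged 360 ± 70.3 CPM in hCYP2B6-Tg and 336 ± 50.6 CPM in Cyp2b-null livers, with an interval of -0.23 to 0.43. A genotype effect within these bounds was not detectable here.

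**Figure D2:**
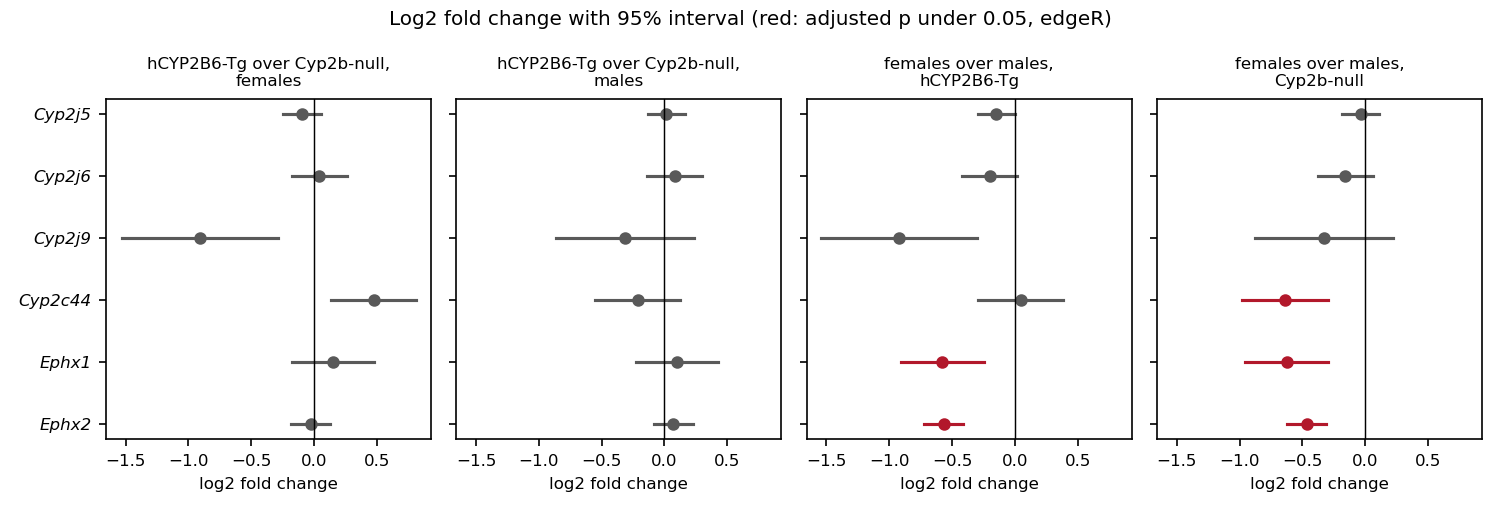
Log2 fold change (points) and 95% interval (lines) of the 6 genes in 4 comparisons from 1 edgeR fit of 16 libraries; red marks an adjusted p under 0.05. The genotype panels hold no red line, and the sex panels show Ephx1 and Ephx2 lower in females in both genotypes and Cyp2c44 lower in Cyp2b-null females only; the difference of the 2 Cyp2c44 sex effects had an adjusted p of 0.462.

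Of the 6 genes, 2 passed as lower in females among hCYP2B6-Tg mice (Ephx1 and Ephx2), against 5.56% of all genes tested as lower, 4.69% as higher and 10.3% in either direction. In Cyp2b-null mice 3 of 6 passed as lower in females (Ephx1, Ephx2 and Cyp2c44), against 3.95% of all genes as lower, 3.57% as higher and 7.52% in either direction. No member passed as higher in females in either genotype (edgeR; DESeq2 and limma voom called none as higher either). At an unadjusted p under 0.05 there were 3 of 6 in each genotype, against 23.5% and 19.9% of all genes. In terms of libraries, 3 of 6 genes had every female below every male in hCYP2B6-Tg mice (Cyp2j9, Ephx1 and Ephx2), against 8.2% of all genes, and 3 of 6 in Cyp2b-null mice (Cyp2c44, Ephx1 and Ephx2), against 6.64%. The median log2 fold change of the 6, females over males, was -0.38 in hCYP2B6-Tg and -0.40 in Cyp2b-null mice, where the medians of all genes were 0.016 and 0.0046.

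Cyp2c44 was lower in females than in males among Cyp2b-null mice, while in hCYP2B6-Tg mice the sexes overlapped. Cyp2c44 had 271, 199, 324 and 310 CPM in hCYP2B6-Tg females, against 153, 262, 175 and 205 CPM in Cyp2b-null females. In males it had 300.5, 261, 234 and 272 CPM in hCYP2B6-Tg, against 268, 314, 335 and 321 CPM in Cyp2b-null libraries. Cyp2b-null females were thus the lowest group, though their library 3 reached the range of both hCYP2B6-Tg groups, and hCYP2B6-Tg female library 2 reached down into theirs. In Cyp2b-null mice Cyp2c44 fell by 0.64 ± 0.16 on the log2 scale in females relative to males (0.642 times, edgeR adjusted p = 0.0204). In hCYP2B6-Tg mice the estimate was 0.05 ± 0.16 (95% interval -0.29 to 0.39, adjusted p = 0.902).

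The genotype effect on Cyp2c44 was 0.47 ± 0.16 in females (hCYP2B6-Tg over Cyp2b-null, 1.39 times, unadjusted p = 0.00937) and -0.21 ± 0.16 in males (0.862 times, unadjusted p = 0.198). Neither passed when edgeR's p was adjusted over all genes (0.551 and 0.847). The female effect minus the male effect was 0.69 ± 0.23 (unadjusted p = 0.00779, edgeR adjusted p = 0.462), so a difference in the genotype effect between the sexes was not shown. Of the 6 genes, 0 passed that test, against 0.0445% of all genes (6 genes, and 0 without Cyp2b-null male library 4 or any of several others); 1 of 6 had an unadjusted p under 0.05, against 7.7%. Over the alternatives with 1 library left out the difference ran from 0.57 to 0.85, with adjusted p of 0.216 to 0.687. The sex call in Cyp2b-null mice was lost without female library 1 (adjusted p = 0.0579) or 4 (0.0696), or without male library 2 (0.0504), 3 (0.0701) or 4 (0.0592) of that genotype, with estimates between -0.80 and -0.53 over all 16 omissions.

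No comparison of Cyp2j5 or Cyp2j6 passed the test, though the estimates of both were lower in females in each genotype. Cyp2j5 averaged 838 ± 40.9 CPM in hCYP2B6-Tg females and 896 ± 15.3 CPM in Cyp2b-null females. In males it averaged 927 ± 56.8 CPM in hCYP2B6-Tg livers and 917.5 ± 54.4 CPM in Cyp2b-null livers. Its lowest library had 784 and its highest 990 CPM. The genotype interval was -0.24 to 0.05 in females and -0.13 to 0.16 in males on the log2 scale, so that changes larger than these are outside the 95% bounds. Between the sexes Cyp2j5 had a log2 fold change of -0.15 ± 0.07 in hCYP2B6-Tg (edgeR adjusted p = 0.217) and -0.035 ± 0.07 in Cyp2b-null mice (0.846).

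Cyp2j6 ran from 66.0 to 79.9 CPM in hCYP2B6-Tg females and from 63.9 to 78.4 CPM in Cyp2b-null females. Its range was 76.3 to 94.2 CPM in hCYP2B6-Tg males and 64.5 to 94.5 CPM in Cyp2b-null males. The log2 fold change between genotypes was 0.04 ± 0.11 in females and 0.08 ± 0.11 in males, and that of females over males -0.20 ± 0.11 in hCYP2B6-Tg and -0.16 ± 0.11 in Cyp2b-null mice (edgeR adjusted p 0.253 to 0.965 over these 4). For Cyp2j6 the 95% interval of females over males ran from -0.42 to 0.017 in hCYP2B6-Tg and from -0.38 to 0.059 in Cyp2b-null mice. None of the comparisons of Cyp2j5 or Cyp2j6 passed under any of the 27 alternatives.

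Cyp2j9 was scarce, with 11 to 63 counts per library. It had 1.48, 3.03, 2.12 and 4.22 CPM in hCYP2B6-Tg females, against 5.09, 4.68, 7.25 and 3.65 CPM in Cyp2b-null females. In males it had 7.64, 4.77, 4.50 and 4.27 CPM in hCYP2B6-Tg, against 8.85, 6.19, 5.68 and 5.61 CPM in Cyp2b-null libraries. The hCYP2B6-Tg females were the lowest group, and their highest library (4.22 CPM) was just below the lowest hCYP2B6-Tg male library (4.27 CPM). The log2 fold change of females over males was -0.92 ± 0.30 in hCYP2B6-Tg mice, which missed the threshold (edgeR adjusted p = 0.0522), and -0.33 ± 0.26 in Cyp2b-null mice (adjusted p = 0.547). The first of these lay at the threshold under many settings: 8 of 27 alternatives called it, among them DESeq2 (adjusted p = 0.024) and edgeR's earlier quasi-likelihood method (0.0458), and its adjusted p ranged from 0.0219 to 0.169. Between genotypes Cyp2j9 had -0.91 ± 0.30 in females (unadjusted p = 0.00608, edgeR adjusted p = 0.548) and -0.32 ± 0.26 in males (0.865).

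**Figure D3:**
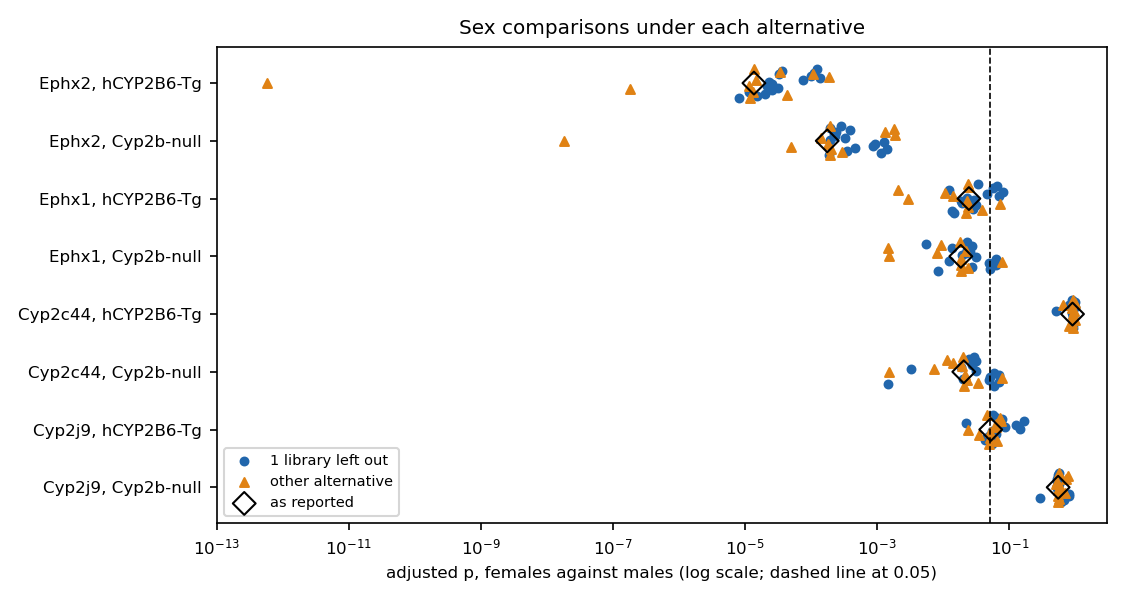
Adjusted p of the female against male comparison (log axis) for 4 genes in each genotype, as reported (diamond), with 1 library left out (circles) and under other alternatives (triangles). Ephx2 stays left of 0.05 throughout in both genotypes, while Ephx1 in both, Cyp2c44 in Cyp2b-null and Cyp2j9 in hCYP2B6-Tg mice have points on each side of the line.

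The ratio of the transcripts of these 4 epoxygenases to Ephx2 was higher in females. The 4 epoxygenases summed per kilobase were 2.12 ± 0.248 times Ephx2 in hCYP2B6-Tg females, against 1.53 ± 0.0596 times in hCYP2B6-Tg males. In Cyp2b-null mice the ratio was 2.04 ± 0.280 in females and 1.65 ± 0.0617 in males. The ranges did not overlap between the sexes of either genotype (1.89 to 2.45 against 1.46 to 1.59, and 1.76 to 2.30 against 1.57 to 1.70). Ephx2 itself was lower in females, and none of the 4 passed as higher in females. Other Cyp2c genes, such as Cyp2c29 with group means of 1255 to 1615 CPM, are not in the sum. These are ratios of transcript levels, given without a test, and say nothing of enzyme activity.

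Within groups, Ephx1 varied from library to library much as Pex11a and Cyp4a14 did. Likeness was measured as Pearson's correlation of log2 CPM deviations from the group means over 16 libraries, among 7885 genes with a mean of at least 10 CPM. The 3 genes most like Ephx1 were Pex11a, which promotes division of peroxisomes (r = 0.957, Spearman's rho 0.956), Fam92a (0.907 and 0.912) and Cyp4a14, a fatty acid omega-hydroxylase and classic target of the receptor PPAR alpha (0.906 and 0.868). Without the 2 libraries whose Ephx1 deviation lay farthest from the median deviation, female 1 of Cyp2b-null and male 4 of hCYP2B6-Tg, the r values were 0.932, 0.857 and 0.863 (n = 14). Male library 4 of hCYP2B6-Tg had the highest level of the 4 libraries of its group in Ephx1 (457 CPM), Pex11a (160 CPM) and Cyp4a14 (1243 CPM). All 12 genes of the PPAR alpha target list above 10 CPM had a positive r with Ephx1. Their median was 0.716 and their range 0.139 (Cpt1a) to 0.957 (Pex11a), where the median over all 7885 genes was 0.016. Pex11a, picked above by the same correlation, is itself in that list, and Cyp4a14 is in the list of omega-hydroxylases. The list comparisons were added after the likeness was seen. Of the 11 NRF2 targets above 10 CPM 10 had a positive r with Ephx1 (median 0.42, from -0.288 for Hmox1 to 0.881 for Gclc). Of the 8 Cyp4 omega-hydroxylases 4 had a positive r (median 0.001, from -0.731 for Cyp4f14 to 0.906 for Cyp4a14). The median over the 12 PPAR alpha targets was 0.259 with Ephx2 and -0.426 with Cyp2c44. These genes share libraries and scaling, the top genes were picked as the highest of many, and no test was made.

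**Figure D4:**
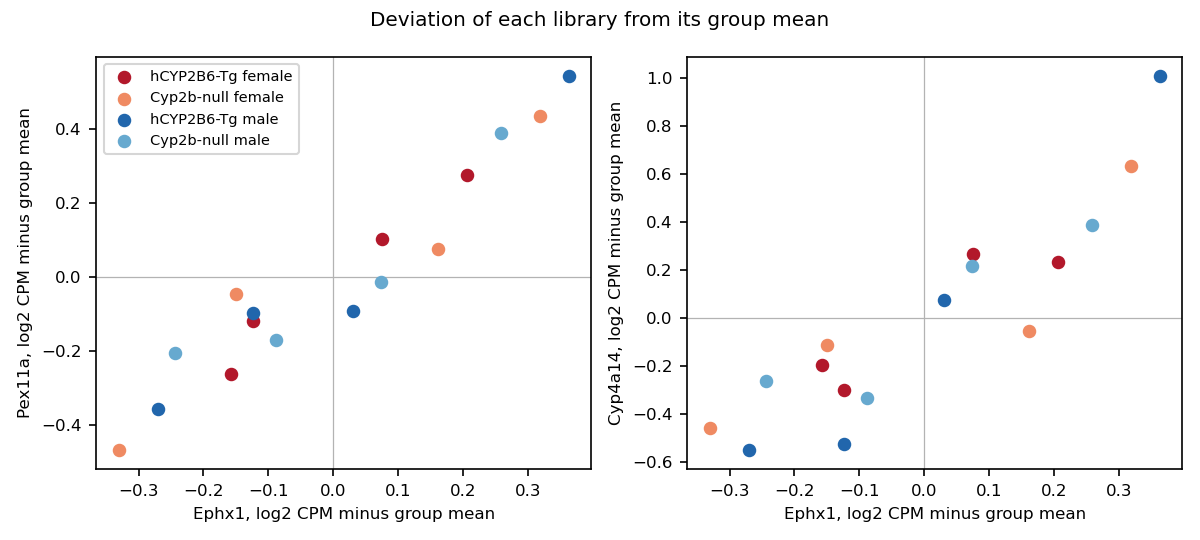
Deviation of Pex11a (left) and Cyp4a14 (right) from its group mean against that of Ephx1, in log2 CPM, 1 point per library, coloured by group. Points of all 4 groups lie along 1 rising band (r = 0.957 and 0.906, n = 16).

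The other genes had less close partners. Those most like Ephx2 were Dync1li2, a dynein subunit (r = 0.862), Ces1e, a carboxylesterase (0.856), and the nucleoporin gene Seh1l (0.856). For Cyp2c44 they were the complement gene C8b (0.860), Rnaseh2a (0.836) and Cnot2 (0.833). Cyp2j5 was most like Cdc16 (0.796), Bhmt, an enzyme of betaine metabolism (0.788), and Agps, an enzyme of ether lipid synthesis (0.782). Cyp2j6 was most like Gm6781 (0.887, but Spearman's rho 0.588), the kinase gene Camk1d (0.866) and the squalene synthase gene Fdft1 (0.844). Cyp2j9 was most like Gmppa (0.896), Pkd1 (0.893) and the protease gene Furin (0.884). Cyp2j9 itself lay below the 10 CPM asked of its partners, with 11 to 63 counts per library. Counting error thus enters every r of Cyp2j9. Without the 2 libraries farthest from each gene's median deviation (n = 14), these r values ran from 0.677 (Cyp2j5 with Agps) to 0.883 (Cyp2c44 with C8b). Of the 15 pairs among the 6 genes themselves, Cyp2j5 with Cyp2j6 had the highest r (0.775) and Cyp2j5 with Cyp2j9 the lowest (-0.559).

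The wider family showed the sex differences in both directions. The 5 other Cyp2j genes listed were near absent, with at most 3 counts in any group. Of the 12 Cyp2c genes tested besides Cyp2c44, 7 passed as higher and 1 as lower in females among hCYP2B6-Tg mice, and 7 as higher and 3 as lower among Cyp2b-null mice, with median log2 fold changes of 1.06 and 1.02. Over all genes tested, 4.69% passed as higher and 5.56% as lower in hCYP2B6-Tg females, and 3.57% and 3.95% in Cyp2b-null females. Cyp2c40, which makes hydroxylated arachidonic acid, averaged 423 ± 67.4 CPM in hCYP2B6-Tg females and 10.1 ± 1.46 CPM in hCYP2B6-Tg males (log2 fold change 5.40 ± 0.16, edgeR adjusted p = 1.06e-15). In Cyp2b-null mice it averaged 370 ± 67.8 CPM in females and 13.5 ± 1.49 CPM in males. Cyp2c68 (1.34 ± 0.09 in hCYP2B6-Tg, 1.25 ± 0.09 in Cyp2b-null) and Cyp2c69 (8.94 ± 0.46 and 7.94 ± 0.45) rose too, and these Cyp2c genes are close copies whose reads may be split uncertainly. Of the other epoxide-opening enzymes only Lta4h, the leukotriene A4 hydrolase, was tested (group means 27.6 to 30.6 CPM, edgeR adjusted p of at least 0.496), and Ephx3 and Ephx4 had at most 4 counts in any group.

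**Figure D5:**
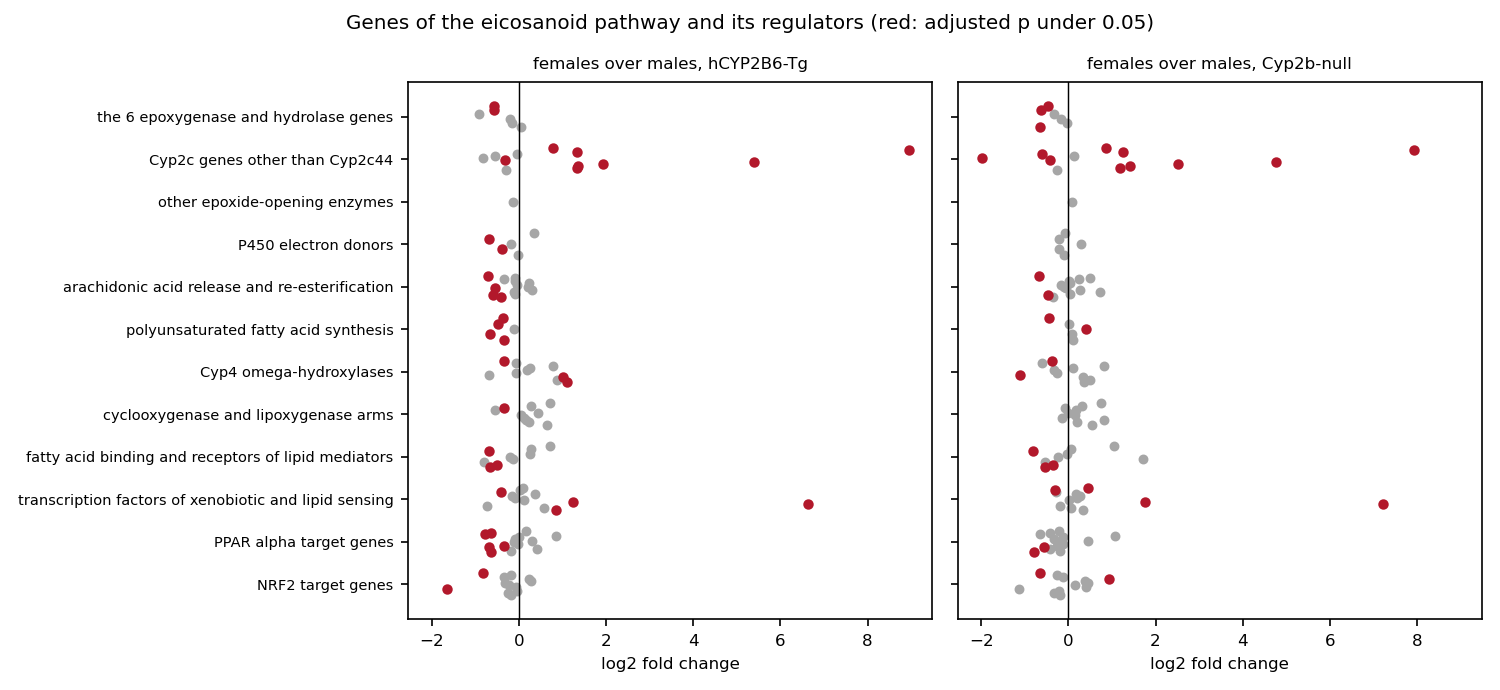
Log2 fold change of females over males for the 6 genes and for tested genes of 11 related lists, in hCYP2B6-Tg (left) and Cyp2b-null mice (right); each point is a gene and red marks an adjusted p under 0.05. Cyp2c genes spread to the right, and the called points of fatty acid binding and PPAR alpha target genes lie to the left; Cyp4a12a and Cyp4a12b, near 0 counts in females, are not drawn.

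Genes that supply and compete for the same fatty acids were mostly lower in females where they passed. List medians of the log2 fold change are given beside those of all genes, 0.016 in hCYP2B6-Tg and 0.0046 in Cyp2b-null mice. The list counts here and in the next paragraph stand beside the shares of all genes tested. These were 5.56% lower and 4.69% higher in hCYP2B6-Tg females, and 3.95% lower and 3.57% higher in Cyp2b-null females. No list was tested against these shares. Among 13 genes of arachidonic acid release and re-esterification, 4 passed as lower and 0 as higher in hCYP2B6-Tg females, and 2 as lower and 0 as higher in Cyp2b-null females (medians -0.097 and 0.0053). These included the phospholipase gene Pla2g6 (-0.71 ± 0.13 and -0.67 ± 0.13, edgeR adjusted p = 0.000779 and 0.00164) and Acsl4, which activates arachidonic acid (-0.58 ± 0.11 and -0.46 ± 0.11). Of the 5 genes of polyunsaturated fatty acid synthesis, 4 passed as lower in hCYP2B6-Tg females, among them the elongase gene Elovl5 (-0.66 ± 0.12, adjusted p = 0.000908), and in Cyp2b-null females 1 was lower (Fads6) and 1 higher (Fads1, 0.40 ± 0.12); the medians were -0.37 and 0.089. The omega-hydroxylase gene Cyp4a12a had 1 count in all over the 4 hCYP2B6-Tg female libraries and 2 over the Cyp2b-null female ones, against 104 ± 61.9 CPM in hCYP2B6-Tg males and 75.9 ± 20.8 CPM in Cyp2b-null males. Of the 12 omega-hydroxylase genes tested, 2 passed as higher and 3 as lower in hCYP2B6-Tg females, and 0 and 4 in Cyp2b-null females (medians 0.065 and -0.29). In the cyclooxygenase and lipoxygenase arms 1 of 10 tested genes passed, the prostaglandin reductase gene Ptgr2 (-0.33 ± 0.09 in hCYP2B6-Tg mice, adjusted p = 0.0159), with medians of 0.20 and 0.19. That count is near the 10.3% of all genes called in either direction in hCYP2B6-Tg mice.

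P450 electron donors passed as lower in hCYP2B6-Tg females for 2 of 5 genes, Cyb5r3 (-0.68 ± 0.12, edgeR adjusted p = 0.000791) and Cyb5b (-0.38 ± 0.11, 0.020), and for 0 of 5 in Cyp2b-null females (medians -0.17 and -0.099). Por, the reductase that feeds electrons to P450 enzymes, had 0.35 ± 0.19 and -0.085 ± 0.20 (adjusted p = 0.306 and 0.865). Of the 9 tested genes of fatty acid binding and lipid mediator receptors, 3 passed as lower in females of each genotype, and they were Fabp1, Fabp2 and Pparg in both (medians -0.19 and -0.25). Among 14 PPAR alpha targets, 5 passed as lower and 0 as higher in hCYP2B6-Tg females, and 2 as lower and 0 as higher in Cyp2b-null females (medians -0.10 and -0.25). Among these targets Acaa1b, a peroxisomal thiolase, averaged 908 ± 97.0 CPM in hCYP2B6-Tg females and 1412 ± 214 CPM in hCYP2B6-Tg males (-0.64 ± 0.10, edgeR adjusted p = 9.73e-05). In Cyp2b-null mice it averaged 802 ± 62.5 CPM in females and 1388 ± 104 CPM in males (-0.79 ± 0.10, adjusted p = 5.13e-06). Of 12 NRF2 targets, 0 passed as higher and 2 as lower in hCYP2B6-Tg females, and 1 (Nqo1, 0.93 ± 0.20) and 1 (Ugdh, -0.65 ± 0.12) in Cyp2b-null females (medians -0.20 and -0.16). Among 12 regulators, 3 passed as higher and 1 as lower in females of each genotype (medians 0.11 and 0.19), and the female-biased repressor gene Cux2 averaged 18.1 ± 7.31 CPM in hCYP2B6-Tg females and 0.154 ± 0.109 CPM in hCYP2B6-Tg males. Between genotypes 0 genes of the 12 lists passed in either sex (edgeR).

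Some marker genes of other liver cells and zones were also called by sex. Over all genes tested, 5.56% passed as lower and 4.69% as higher in hCYP2B6-Tg females. In Cyp2b-null females the shares were 3.95% and 3.57%. Whether any marker list departs from these shares was not tested. Of 8 Kupffer cell and macrophage markers 1 passed as higher in hCYP2B6-Tg females and 3 in Cyp2b-null females. Their sum ran from 337 to 504 CPM in hCYP2B6-Tg females, 360 to 593 CPM in Cyp2b-null females, 276 to 330 CPM in hCYP2B6-Tg males and 254 to 354 CPM in Cyp2b-null males. Of 10 periportal markers 2 passed as lower in hCYP2B6-Tg females, and 3 as higher and 1 as lower in Cyp2b-null females; of 10 pericentral markers 1 passed as higher in hCYP2B6-Tg females and 1 as lower in Cyp2b-null females. Of 8 fat cell markers 3 could be tested and 2 passed as lower in females of each genotype, with summed levels of 6.41 to 7.87 CPM in hCYP2B6-Tg females, 5.46 to 10.9 CPM in Cyp2b-null females, 16.3 to 69.5 CPM in hCYP2B6-Tg males and 20.2 to 35.4 CPM in Cyp2b-null males. In hCYP2B6-Tg mice the 2 were Cidec and Cfd. The markers Adipoq, Plin1, Lep, Retn and Aqp7 were near absent, with at most 11 counts in any group. Of 8 hepatocyte markers 1 passed as higher and 2 as lower in hCYP2B6-Tg females, and 2 as higher and 1 as lower in Cyp2b-null females. The 1 pancreatic acinar marker tested, Cela1, passed as lower in Cyp2b-null females (-0.80 ± 0.21, edgeR adjusted p = 0.0213). Of the 3 cholangiocyte markers tested 0 passed, and endothelial and stellate markers passed for 0 of 8 each in both genotypes. Without Cyp2b-null male library 4, Cela1 and the pericentral marker were no longer called in Cyp2b-null females, and 2 Kupffer cell markers were. Among the pathway lists in Cyp2b-null females, omission of that library left 1 gene of fatty acid binding lower in place of 3, 3 omega-hydroxylases lower in place of 4, 2 Cyp2c genes lower in place of 3, 2 NRF2 targets lower in place of 1, and 0 genes of polyunsaturated fatty acid synthesis higher in place of 1. In hCYP2B6-Tg females it left 3 genes of that synthesis lower in place of 4, and Cela1 was newly called as lower. The part of these markers in the results on Ephx1, Ephx2 and Cyp2c44 was not tested.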

How the data were processed

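Liver RNA of 16 libraries was read from 1 deposited table of raw counts per gene, whole numbers that the authors made with 1 column per library. Tools in the submitters' processing notes are GSNAP, Subread, edgeR, Trimmomatic and FastQC, and the build is GRCm38.p6, with no versions or order. Neither the strand setting nor the treatment of multiply mapped reads was found there. Per the labels' protocols, RNA was extracted with Trizol and made into libraries with the NEB Next Ultra kit. Groups were taken from the titles. The labels do not say that each library is a separate animal, so p-values measure only how these libraries vary, which may be technical. Totals were 5584587 to 9672708 counts, of which 2.76% to 9.31% lay in 2 ribosomal RNA rows. The table has 27 row names turned into dates and 2 repeated ones, none of them a gene named here.

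Genes were filtered with filterByExpr (13470 kept) and scaled by TMM. Contrasts were tested by edgeR quasi-likelihood (glmQLFit, robust, with bias-adjusted deviances, legacy=FALSE; two-sided) in 1 fit of 4 groups, Benjamini-Hochberg adjusted over all 13470 genes at a threshold of 0.05. The standard error is the log2 fold change divided by the root of F, and intervals are 95%. The choice of deviances was made after both methods had been run, to keep to an earlier account of these data; the earlier method is an alternative added after seeing the data. The other alternatives were library totals or RLE scaling, other filters, DESeq2, limma voom, the compared groups alone, a replicate block and libraries left out. Groups were compared by genotype within each sex, by sex within each genotype, and by the difference of the genotype effects. Levels per kilobase use GENCODE M21 exons. The script was tested on simulated counts. Versions were DESeq2 1.42.0, limma 3.58.1, edgeR 4.0.16 and R 4.3.3.

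The genes and lists were chosen with earlier results of these data known. Named were all 6 genes, up to 3 genes per list and contrast past the threshold with the smallest adjusted p, and the 3 genes most like each of the 6. Por, Lta4h, Cyp2c29, the near-absent genes, Krt19, Ctrb1, Cela1, Cidec, Cfd and genes at the ends of a range were named after their values were seen. Not every gene that the rule takes is described, and 1 is not reported here.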

Additional observations from a re-analysis of the deposited data

Results flagged for a closer look

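Cyp2j9 stood out in 1 library: hCYP2B6-Tg male 2 had 7.64 CPM (50 counts), against 4.27 to 4.77 CPM in the other 3 libraries of its group. The gap to the nearest of them was 0.852 of the group's range, above the 95% critical value of Dixon's test. In all 24 sets of 4 were compared, and chance marks about 1 in 20.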

How the results depend on the processing

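The 6 genes were tested in 5 contrasts under 27 alternatives (26 for the difference between the sexes, which the compared groups alone cannot give), which gave 804 values; 758 kept their direction and side of the threshold, 15 lost and 8 gained a call, and 23 changed sign, none larger than 0.055 in size on the log2 scale. No alternative called a member between genotypes. With 1 library left out, members called as different by sex ranged from 1 to 3 in hCYP2B6-Tg and from 1 to 3 in Cyp2b-null mice. Without the filter Ephx2 alone, 1 member, was called in Cyp2b-null mice (edgeR adjusted p = 0.0785 for Ephx1 and 0.0768 for Cyp2c44). In hCYP2B6-Tg mice Ephx1 then lost its call (0.0723), and 2 members were called, Ephx2 and Cyp2j9. Over all genes, the genotype count in females, 0 as reported, was 2 without the filter, 12 with DESeq2, 2 with the replicate number as a block, and 0 to 1 with 1 library left out. In males, 15 as reported, it was 47 with DESeq2, 6 with limma voom, 26 with the 2 groups alone, 5 with the replicate block, 28 without Cyp2b-null females 1 and 3 and hCYP2B6-Tg male 4, and 2 (without Cyp2b-null male 4 or hCYP2B6-Tg male 4 or 5) to 24 with 1 library left out. The count for the difference between the sexes, 6 as reported, was 0 with library totals only, 16 with DESeq2, 3 with limma voom and 0 to 12 with 1 library left out. The cause of these shifts was not tested.

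Signs changed for small values only. Cyp2j5 in males (genotype) was -0.013 with library totals only and -0.019 to 0.056 with 1 library left out. Ephx1 in males was -0.034 without the 3 libraries together and -0.031 to 0.20 with 1 left out. Cyp2c44 in hCYP2B6-Tg mice (females over males) was -0.012 without the 3 libraries and -0.040 to 0.18 with 1 left out. With 1 library left out, Cyp2j6 ranged from -0.024 to 0.098 (females) and -0.016 to 0.16 (males) between genotypes and from -0.12 to 0.055 in their difference, Ephx2 from -0.071 to 0.0038 in females, Ephx1 from -0.051 to 0.18 in the difference, and Cyp2j5 from -0.063 to 0.0031 for sex in Cyp2b-null mice.

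Titles share numbers across groups. The 18 same-numbered pairs had correlations of deviations of -0.107 to 0.190, with 2 over 0.1. No clear pairing by number was seen, but a correlation over all genes could miss a pairing that touches few of them. With the replicate block the members called by sex stayed at 2 and 3. Depth limits Cyp2j9, with as few as 11 counts in a library.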
